A study of Mus musculus with 20 samples.

Results

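Spon2, Fam132a and Zg16 encode secreted proteins, and they were described here as 3 of the 24315 genes of 2 expression tables from mouse bone marrow. They were taken by symbol because their RNA was among the largest decreases in MEP of Bcor-/-Dnmt3a-/- mice against WT mice, so that difference is given below as a description with no test. Among the genes lower in that comparison with an adjusted p under 0.05 in limma and with groups that did not overlap, Spon2, Fam132a and Zg16 ranked 2, 3 and 4 by the size of the decrease. Of all 10933 genes tested, 11% fell with an adjusted p under 0.05 and a fold change above 1.5, and the groups of 50.5% did not overlap. Pf4 stood just above them with a difference of -3.99 on the log2(FPKM + 1) scale and Dntt just below with -3.35, next to -3.73 for Spon2, -3.65 for Fam132a and -3.38 for Zg16.

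Polyadenylated RNA was sequenced from 2 sorted bone marrow populations of C57BL/6 mice. LSK are the lineage-negative, Sca1-positive, Kit-positive cells that hold the stem cells and earliest progenitors, and MEP are the megakaryocyte-erythroid progenitors, Kit-positive but Sca1-negative. The 4 genotypes were WT, with both genes intact, Dnmt3a-/-, with a deletion in a DNA methyltransferase gene, Bcor-/-, with a deletion in the gene of a corepressor of a Polycomb complex, and Bcor-/-Dnmt3a-/-, with both (double knockout). The study describes the Dnmt3a deletion as incomplete in the single knockout mice and as complete in leukemic double knockout mice. The deletions were made with Mx1-Cre, an interferon-inducible recombinase that is active in blood cells and also in other tissues. Library names carry a Cre tag in the mutant genotypes and not in WT. They also carry a 3A tag in every genotype but Bcor-/-, WT included, and an XY tag in WT and Dnmt3a-/- only. What the 3A and XY tags mean was not settled here. The ages are not given in the labels. Each population had 3 WT, 3 Dnmt3a-/-, 2 Bcor-/- and 2 double knockout libraries. The study states more double knockout mice than the libraries analysed here. Each mouse or pool gave both an LSK and a MEP library, and 1 Bcor-/- library of each population names 2 mice. Double knockout mice of this kind develop an erythroid leukemia, and the study describes its RNA comparison as one of leukemic double knockout mice with WT mice, while the labels give no stage for the single libraries.

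Spondin 2, also called mindin, is a secreted extracellular matrix protein that binds bacterial surfaces and serves as an integrin ligand for leukocytes. Fam132a, whose current symbol is C1qtnf12, encodes adipolin, a secreted protein of the C1q/TNF family best known as an adipose-derived hormone. Its relative Fam132b encodes erythroferrone, which erythroblasts secrete to lower hepcidin. Zg16 encodes zymogen granule protein 16, a jacalin-like lectin of pancreatic zymogen granules and intestinal mucus that binds the peptidoglycan of Gram-positive bacteria. None of the 3 proteins is a standard marker of a blood cell lineage.

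In the GENCODE M21 annotation of the GRCm38 mouse genome, Spon2 lies on chromosome 5 with 6 exons and 990 coding bases, Fam132a on chromosome 4 with 8 exons and 924 coding bases, and Zg16 on chromosome 7 with 3 exons and 501 coding bases. The start of each coding sequence is shown because it encodes the N-terminus, where secreted proteins carry their signal sequence, with the start codon in capitals:
Spon2: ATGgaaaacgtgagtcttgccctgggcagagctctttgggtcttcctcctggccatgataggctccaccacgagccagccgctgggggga
Fam132a: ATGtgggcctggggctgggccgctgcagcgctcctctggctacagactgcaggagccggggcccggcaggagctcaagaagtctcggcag
Zg16: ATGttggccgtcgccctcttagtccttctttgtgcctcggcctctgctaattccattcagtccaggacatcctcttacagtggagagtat

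Several features of the libraries touch all 3 genes. The double knockout libraries stood apart from each other, with a correlation across genes of 0.815 in MEP and 0.849 in LSK, where all other pairs of replicates reached at least 0.971 and 0.973. In MEP, the maturing erythroid genes held 0.958% of the summed FPKM in double knockout replicate 1 and 15.5% in replicate 2, against 0.116 to 0.262% in the other 8 libraries. The globin gene Hbb-b1 was listed at 0 in replicate 2, beside 30100 FPKM for Hbb-b2 and 1850 FPKM for Hbb-b1 in replicate 1, so that its true level there is unknown. Without Hbb-b1 the shares were 0.536% and 15.5%, and 0.106 to 0.207% in the other libraries. RNA of the deleted genes was still listed in every mutant library, with Bcor between 19.5 and 22.4 FPKM in Bcor-/- MEP and between 21.3 and 26.9 in WT, and Dnmt3a between 2.56 and 5.40 in Dnmt3a-/- MEP and between 5.49 and 6.64 in WT. Double knockout MEP held Bcor at 19.6 and 26.7 FPKM and Dnmt3a at 6.85 and 3.44 FPKM, the 6.85 lying above every WT library, and in LSK Bcor in double knockout replicate 2 (37.4 FPKM) also lay above every WT library (29.5 to 32.4). The study describes the shortened Bcor transcript as unstable and found none by PCR in LSK of Bcor-/- mice, and in LSK Bcor was listed here at 22.4 and 23.2 FPKM in the single knockout. Gene totals include exons outside the deletions, so they do not check the labels, and genotypes are given as labelled throughout. Differences in the RNA per cell and in the share of cells that hold the RNA cannot be told apart in these bulk libraries.

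Spon2 RNA was high in WT and Dnmt3a-/- MEP, lower in Bcor-/- MEP and lowest in double knockout MEP. In WT MEP it measured 22.9, 29.9 and 17.2 FPKM, a length- and depth-scaled read count. In Dnmt3a-/- MEP it measured 23.7, 34.8 and 28.0 FPKM. In Bcor-/- MEP it measured 5.85 and 7.25 FPKM, and in double knockout MEP 0.865 and 0.724 FPKM. The WT and Dnmt3a-/- ranges overlapped, both Bcor-/- libraries lay below all 6 of these, and both double knockout libraries lay below both Bcor-/- libraries. Over all genes, Bcor-/- and WT MEP did not overlap for 30.8%, and Bcor-/- and Dnmt3a-/- MEP for 40.8%. The separation of WT and the double knockout was fixed by the choice of the gene. The place of the double knockout below Bcor-/- rests on values that chose the gene and was not tested. The mean was 23.3 ± 6.36 FPKM in WT (SD, n = 3) and 0.794 ± 0.0995 in the double knockout (SD, n = 2), 29.3-fold lower.

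Spon2 was also low in Bcor-/- MEP. The means compared with Dnmt3a-/- MEP hold no library that chose the gene, but the spread of the fit is shared with the WT and double knockout libraries that did. Spon2 was lower in Bcor-/- than in Dnmt3a-/- MEP, with means of 6.55 ± 0.987 and 28.8 ± 5.58 FPKM and a difference of -1.97 ± 0.24 (SE) on the log2(FPKM + 1) scale (adjusted p = 0.0275 in limma). Fitted on the Bcor-/- and Dnmt3a-/- libraries alone, the difference was the same (adjusted p = 0.0182). Calls here take an unadjusted limma p under 0.05 and a fold change above 1.5, which 3.55% of the 10933 genes tested met in this comparison, while 0.21% met them with an adjusted p and 40.8% had groups that did not overlap. Against WT, Spon2 was 3.56-fold lower in Bcor-/- MEP, with a difference of -1.66 ± 0.24 that was called but missed the threshold after adjustment (adjusted p = 0.0602 in limma), where 2.76% of genes were called. The WT libraries of the latter comparison also chose the gene, which favours high WT values, so its call gives no independent support. Dnmt3a-/- MEP was not called against WT, with a difference of 0.31 ± 0.21 (adjusted p = 1 in limma) that ranged from 0.12 to 0.50 when a library was left out. Leaving out any 1 library kept both Bcor-/- differences called, the smallest being -1.47. The adjusted p against Dnmt3a-/- passed 0.05 without Bcor-/- replicate 1 (adjusted p = 0.474) or replicate 2 (adjusted p = 0.179). It also did so without Dnmt3a-/- replicates 1, 2 or 3 (adjusted p = 0.0889, 0.128 and 0.134) and without WT replicate 1 (adjusted p = 0.0891). The exact two-sided permutation test of 2 against 3 libraries gave p = 0.10 for both, the smallest it can give.

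In LSK, Spon2 was close to the lower end of what the libraries could measure. It was listed at 0.554, 0.423 and 0.586 FPKM in WT and at 0.268, 0.537 and 0.403 FPKM in Dnmt3a-/- LSK. It was listed at 0.574 and 2.04 FPKM in Bcor-/- LSK, and at 0.491 and 0 FPKM in the double knockout. Only Bcor-/- replicate 2 stood out, and in the order of means, Bcor-/-, WT, Dnmt3a-/- and double knockout, all neighbouring groups overlapped. The mean over the LSK libraries, 0.587 FPKM, fell under the minimum of 1 FPKM for testing. Without that minimum, limma gave 0.64 for Bcor-/- against Dnmt3a-/- (called, adjusted p = 0.206), where both Bcor-/- libraries lay above all 3 Dnmt3a-/- libraries. The other comparisons were not called without the minimum, with differences from -0.32 to 0.52.

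**Figure D1:**
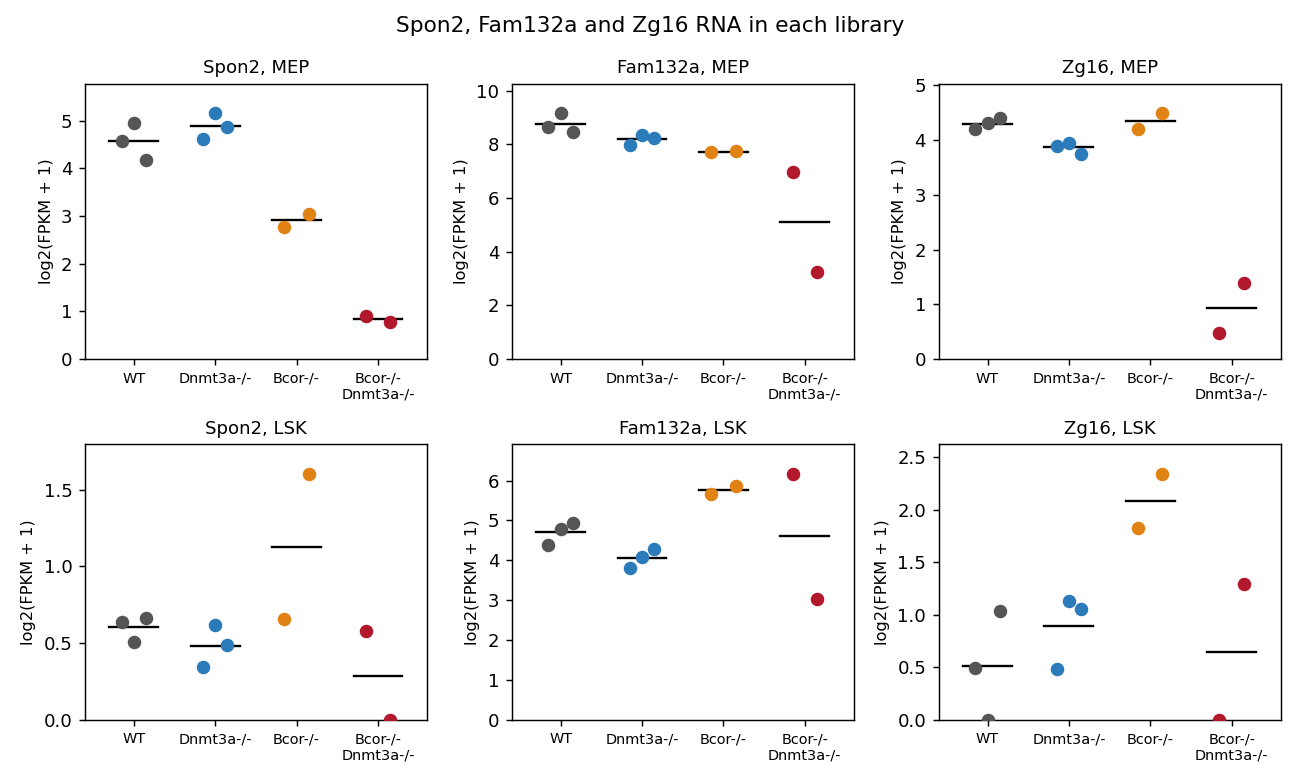
RNA level of each gene in each library, as log2(FPKM + 1), with MEP in the upper row and LSK in the lower row, on vertical scales that differ between panels. Points are libraries grouped by genotype and lines are group means. In MEP both double knockout libraries lie below every other library for all 3 genes, which were chosen for their decrease from WT there. Spon2 is also low in the Bcor-/- libraries at 5.85 and 7.25 FPKM. The double knockout libraries differ from each other in Fam132a, at 125 and 8.46 FPKM.

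The low values rested on few reads. After scaling for relative depth, the Spon2 values of each table were whole multiples of 1 common step within 0.1 for all values under 150 steps, which may be 1 counted fragment or a part of one. On that scale, double knockout MEP held 10 and 8 steps of Spon2, Bcor-/- MEP 84 and 117, and WT MEP 229, 431 and 242. In LSK, Spon2 held 0 to 7 steps in 9 libraries and 29 in Bcor-/- replicate 2. Relative depth reached at most 1.61 times that of WT replicate 1 in MEP and lay between 0.79 and 1.32 times in LSK.

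Fam132a was the most abundant of the 3 genes and the one whose double knockout libraries disagreed most. Its WT MEP mean exceeded that of 99.6% of genes in the table. WT MEP measured 396, 571 and 353 FPKM. Dnmt3a-/- MEP measured 248, 322 and 302 FPKM, and Bcor-/- MEP 208 and 215 FPKM. Double knockout MEP measured 125 FPKM in replicate 1 and 8.46 FPKM in replicate 2. The 4 genotypes formed an order, WT, Dnmt3a-/-, Bcor-/- and double knockout, in which no neighbouring ranges overlapped. The separation of WT and the double knockout was fixed by the choice of the gene, and Bcor-/- and Dnmt3a-/- MEP did not overlap for 40.8% of all genes. The mean was 440 ± 116 FPKM in WT (SD, n = 3) and 66.5 ± 82.1 in the double knockout (SD, n = 2). The RNA was not lost in double knockout replicate 1, and on the log2(FPKM + 1) scale the difference from WT was -1.78 with replicate 1 alone and -5.51 with replicate 2 alone.

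No difference of Fam132a between the single knockouts and WT was called in MEP when all 4 genotypes shared 1 estimate of the spread. The difference was -1.02 ± 0.85 (SE) on the log2(FPKM + 1) scale for Bcor-/- against WT, and -0.57 ± 0.76 for Dnmt3a-/- against WT, where 0.412% of genes were called (adjusted p = 1 for both in limma). Bcor-/- against Dnmt3a-/- gave -0.45 ± 0.85 (adjusted p = 0.967). On the log2(FPKM + 1) scale the SD of Fam132a was 2.64 in the double knockout, 0.36 in WT, 0.20 in Dnmt3a-/- and 0.03 in Bcor-/- MEP. Without double knockout replicate 1 the same -1.02 was called (adjusted p = 0.0584), and so it was without replicate 2 (adjusted p = 0.0594). The WT libraries also chose the gene, which favours high WT values here as well, so these calls give no independent support. The groups of that comparison did not overlap, as was so for 30.8% of genes, nor did those of Dnmt3a-/- and WT, as for 10.4% of genes. The exact permutation test gave p = 0.10 in both, the smallest possible.

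Fam132a in LSK followed another order of genotypes. WT LSK measured 19.9, 26.7 and 29.7 FPKM and Dnmt3a-/- LSK 13.0, 15.9 and 18.5 FPKM. Bcor-/- LSK measured 49.9 and 57.3 FPKM, and double knockout LSK 71.0 FPKM in replicate 1 and 7.21 FPKM in replicate 2. Bcor-/- lay above WT and WT above Dnmt3a-/- with no overlap, while the double knockout libraries lay at the top and the bottom of all 10. The double knockout mean of 39.1 ± 45.1 FPKM (SD, n = 2) therefore describes neither library. Against WT the double knockout differed by -0.10 ± 0.70 on the log2(FPKM + 1) scale (adjusted p = 0.928 in limma), in a comparison that called 28.3% of 11952 genes. The difference was 1.46 without replicate 2 and -1.67 without replicate 1, each resting on 1 double knockout library, and 0.01 without WT replicate 3.

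Fam132a was higher in Bcor-/- LSK than in Dnmt3a-/- LSK, by 1.71 ± 0.70 on the log2(FPKM + 1) scale, with a 3.39-fold ratio of mean FPKM. This was called, but not after adjustment (adjusted p = 0.14 in limma), in a comparison where 16% of genes were called and 58.1% had groups that did not overlap. The call was lost without any 1 of WT replicates 2 and 3, Dnmt3a-/- replicates 1, 2 and 3 and Bcor-/- replicates 1 and 2, with adjusted p from 0.183 to 0.453 and differences from 1.58 to 1.82. Against WT, Bcor-/- LSK was 2.10-fold higher, with a difference of 1.06 ± 0.70 that was not called (adjusted p = 0.39 in limma). In that comparison 13.2% of genes were called and 54% had groups that did not overlap. The difference was called without double knockout replicate 1 and without replicate 2, fits that left 1 double knockout library. Dnmt3a-/- LSK lay below WT with a difference of -0.65 ± 0.62 that was not called (adjusted p = 1), where 0.443% of genes were called and 9.61% had groups that did not overlap. Without double knockout replicate 1 or 2 it was called on the unadjusted p (adjusted p = 0.984 and 0.944).

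The same double knockout mouse gave the lower Fam132a value in both populations. Replicate 2 of the double knockout held 8.46 FPKM in MEP and 7.21 in LSK, and replicate 1 held 125 and 71.0. In LSK the maturing erythroid genes took 1.38% of the summed FPKM in replicate 1 and 4.57% in replicate 2, against 0.0132 to 0.036% in the other 8 libraries. The part of these erythroid transcripts in the Fam132a values was not tested. Centring each MEP library on its median gave -3.80 for the double knockout against WT and quantile normalization -3.64, close to the -3.65 of the deposited values.

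Zg16 was low in double knockout MEP, the difference from WT that chose it, with little difference among the other 3 genotypes. WT MEP measured 17.4, 18.8 and 20.1 FPKM. Dnmt3a-/- MEP measured 13.9, 14.4 and 12.5 FPKM, Bcor-/- MEP 17.4 and 21.5 FPKM, and double knockout MEP 0.383 and 1.61 FPKM. The Bcor-/- and WT ranges overlapped, the Dnmt3a-/- libraries lay just below both, and the double knockout libraries lay far below. The separation of WT and the double knockout was fixed by the choice of the gene. Double knockout and WT MEP did not overlap for 50.5% of all genes. Over all genes, Dnmt3a-/- and WT MEP did not overlap for 10.4%, and Bcor-/- and Dnmt3a-/- MEP for 40.8%. The mean was 18.8 ± 1.35 FPKM in WT (SD, n = 3) and 0.998 ± 0.870 in the double knockout (SD, n = 2), 18.8-fold lower. In LSK, 0.411 FPKM of Zg16 was 1 step of the smallest value. No step count is given for Zg16 in MEP, so this fold may rest on few fragments.

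Neither single deletion was called for Zg16 in MEP. Bcor-/- differed from WT by 0.05 ± 0.24 (SE) on the log2(FPKM + 1) scale and Dnmt3a-/- by -0.44 ± 0.22 (adjusted p = 1 for both in limma). The WT libraries also chose the gene, which favours high WT values, so neither comparison is independent of that choice. Bcor-/- MEP lay above Dnmt3a-/- MEP without overlap, by 0.48 ± 0.24 (adjusted p = 0.784), as 40.8% of genes did not overlap in that comparison. Leaving out WT replicate 1 turned the sign of the Bcor-/- difference from WT, to -0.01, and leaving out Bcor-/- replicate 2 gave -0.10.

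In LSK, Zg16 was highest in the Bcor-/- libraries. WT LSK was listed at 0.411, 0 and 1.05 FPKM and Dnmt3a-/- LSK at 0.396, 1.19 and 1.07 FPKM. Bcor-/- LSK was listed at 2.55 and 4.06 FPKM and double knockout LSK at 0 and 1.45 FPKM. In steps of the smallest value, 8 libraries held 0 to 3 and the Bcor-/- libraries 7 and 13. Both Bcor-/- libraries lay above all others, and the remaining 3 genotypes overlapped.

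The Bcor-/- difference of Zg16 in LSK was 1.57 ± 0.46 against WT on the log2(FPKM + 1) scale, called but not after adjustment (adjusted p = 0.0721 in limma), in a comparison that called 13.2% of genes and left the groups of 54% without overlap. Against Dnmt3a-/- it was 1.20 ± 0.46, also called (adjusted p = 0.121). The exact permutation test gave p = 0.10 in both, the smallest possible. Zg16 reached the minimum of 1 FPKM in LSK only through these 2 libraries, since its mean was 1.22 FPKM with them and 0.696 without, so a Zg16 that was not high there would not have been tested, and the calls above that minimum are no support for the increase. With no minimum, where Zg16 was tested whatever its level, the differences were the same and called, but not after adjustment (adjusted p = 0.094 against WT and 0.149 against Dnmt3a-/-). Without Bcor-/- replicate 2 both calls were lost, at 1.32 against WT (adjusted p = 0.44) and 0.94 against Dnmt3a-/- (adjusted p = 0.494), and without Dnmt3a-/- replicate 1 the call against Dnmt3a-/- was lost at 0.99 (adjusted p = 0.279). Double knockout LSK differed from WT by 0.13 ± 0.46 (adjusted p = 0.852), a sign that turned without WT replicate 2, at -0.12, and without double knockout replicate 2, at -0.51.

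**Figure D2:**
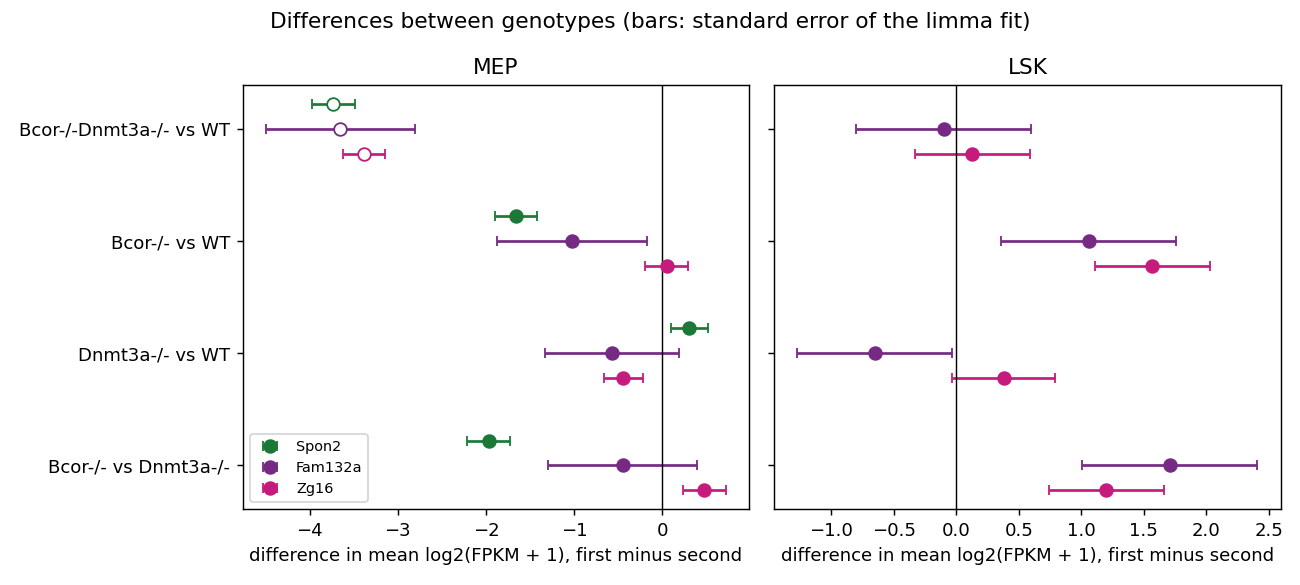
Differences in mean log2(FPKM + 1) between genotypes for Spon2, Fam132a and Zg16 in MEP (left) and LSK (right), first genotype minus second. Bars are standard errors of the limma fit, and open points mark the MEP comparison that chose the genes. Spon2 is absent from the LSK panel because its mean of 0.587 FPKM was under the minimum. In MEP, Spon2 lies at -1.97 for Bcor-/- against Dnmt3a-/-, and in LSK Fam132a and Zg16 lie at 1.71 and 1.20 for the same genotypes.

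Markers of other stages and lineages also differed in Bcor-/- LSK. Of 9 genes that mark megakaryocyte-erythroid progenitors, 4 rose in Bcor-/- against WT LSK and none fell, where 7.2% of all genes were called higher and 6.03% lower. They were Car1 (2.91 on the log2 scale), Klf1 (2.32), Epor (1.65) and Gata1 (1.14), a carbonic anhydrase, an erythroid transcription factor, the erythropoietin receptor and the GATA factor of both lineages. Their summed level over the 9 genes was 632 to 761 FPKM in WT, 702 to 739 in Dnmt3a-/- and 944 to 1412 in Bcor-/- LSK, with no marker at 0 in all libraries of a group. Of 11 granulocyte and monocyte markers, 5 rose, led by Elane at 3.46 and Prtn3 at 2.90, which encode neutrophil granule proteases, and their summed level was 3601 to 13660 FPKM in WT and 18430 to 26310 in Bcor-/- LSK. Of 9 stem cell markers, 3 fell, namely Slamf1 (-1.40), Mecom (-1.20) and Hlf (-1.01). The summed stem cell level was 790 to 926 FPKM in WT and 393 to 628 in Bcor-/- LSK. Of 10 maturing erythroid genes 3 rose and none fell, and the list summed to 56.3 to 151 FPKM in WT and 165 to 174 in Bcor-/- LSK. Of 6 basophil and mast cell markers 1 rose, Hdc (2.77), and 3 fell, Fcer1a (-1.22), Mcpt8 (-1.19) and Ms4a2 (-0.74). The part of these shifts in the Fam132a and Zg16 values was not tested.

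The levels of all 3 genes were higher in WT MEP than in WT LSK. Spon2 averaged 23.3 against 0.521 FPKM, Fam132a 440 against 25.5 FPKM and Zg16 18.8 against 0.487 FPKM. The 2 tables may have been normalized separately, so no test was made across them. The genes were also chosen for a decrease from WT MEP, which favours high values there. In these levels per length and depth, Fam132a led the other 2 genes in every library of both populations.

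Most acinar, goblet and fat cell markers were near 0 in WT MEP, with the exception of Cela1, at 72.1 to 131 FPKM. Of 11 pancreatic acinar and goblet cell markers, 8 were listed at 0 in all WT MEP libraries, among them Pnlip, Cpa1, Cpb1, Gp2, Fcgbp and Tff3. The list summed to 72.6 to 131 FPKM in WT, 94.8 to 119 in Dnmt3a-/-, 63.7 to 69.1 in Bcor-/- and 37.6 to 69.1 in double knockout MEP, nearly all of it from the elastase gene Cela1. Cela1, the 1 gene of the list tested, was called lower in double knockout against WT MEP (-0.93 on the log2 scale), as were 12.4% of all genes. The difference was -0.51 without double knockout replicate 1 and -1.36 without replicate 2. In Bcor-/- against WT LSK it was called higher (0.75), as were 7.2% of genes. Of 7 adipocyte markers, Lep, Plin1, Cfd and Cidec were listed at 0 in all WT MEP libraries, and the list summed to at most 0.453 FPKM in WT and to 0.743 and 10.1 in the double knockout, where Fabp4 and Pparg reached 6.06 and 4.01 FPKM in replicate 1. Adipoq, which encodes the fat cell hormone adiponectin, was listed at 0 in both double knockout MEP libraries.

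The genes beside the 3 on their chromosomes are given as their surroundings. Since the 3 were chosen for their decrease in double knockout MEP, the size of that decrease beside their neighbours is no comparison. The 3 nearest protein-coding genes on each side were taken by their order in the RefSeq annotation of GRCm38. Of the 5 neighbours of Spon2 tested in double knockout against WT MEP, none fell and Uvssa rose by 1.02 ± 0.23 (adjusted p = 0.0117 in limma), where 30.9% of all genes were called, 18.5% higher and 12.4% lower. Uvssa, a repair factor for stalled transcription, measured 4.03, 4.10 and 3.99 FPKM in WT and 6.55 and 12.8 in the double knockout. Ctbp1, a corepressor directly beside Spon2, differed by -0.37 ± 0.15 and was not called.

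Of the 6 neighbours of Fam132a, 2 fell and none rose. B3galt6, a galactosyltransferase of proteoglycan assembly directly beside it, fell by 1.11 on the log2 scale (SE 0.19, adjusted p = 0.00367), and Pusl1, a pseudouridine synthase-like gene, fell by 1.04 (SE 0.21, adjusted p = 0.00778). B3galt6 measured 5.28, 5.65 and 5.25 FPKM in WT and 2.53 and 1.47 in the double knockout. Of the 5 neighbours of Zg16 tested, AI467606 rose by 0.95 ± 0.19 and Spn, which encodes the leukocyte sialoglycoprotein CD43, fell by 0.89 on the log2 scale (SE 0.19, adjusted p = 0.00812). Spn measured 181, 206 and 184 FPKM in WT and 132 and 78.9 in the double knockout. In Bcor-/- against Dnmt3a-/- MEP no neighbour of any of the 3 genes was called by limma, and 1 of 16 tested, AI467606, had a p under 0.05 before adjustment when the fold change was ignored. It was called in Bcor-/- against WT MEP, at 0.70. The neighbours of Spon2 ranged from -0.31 to 0.14 beside its own -1.97.

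**Figure D3:**
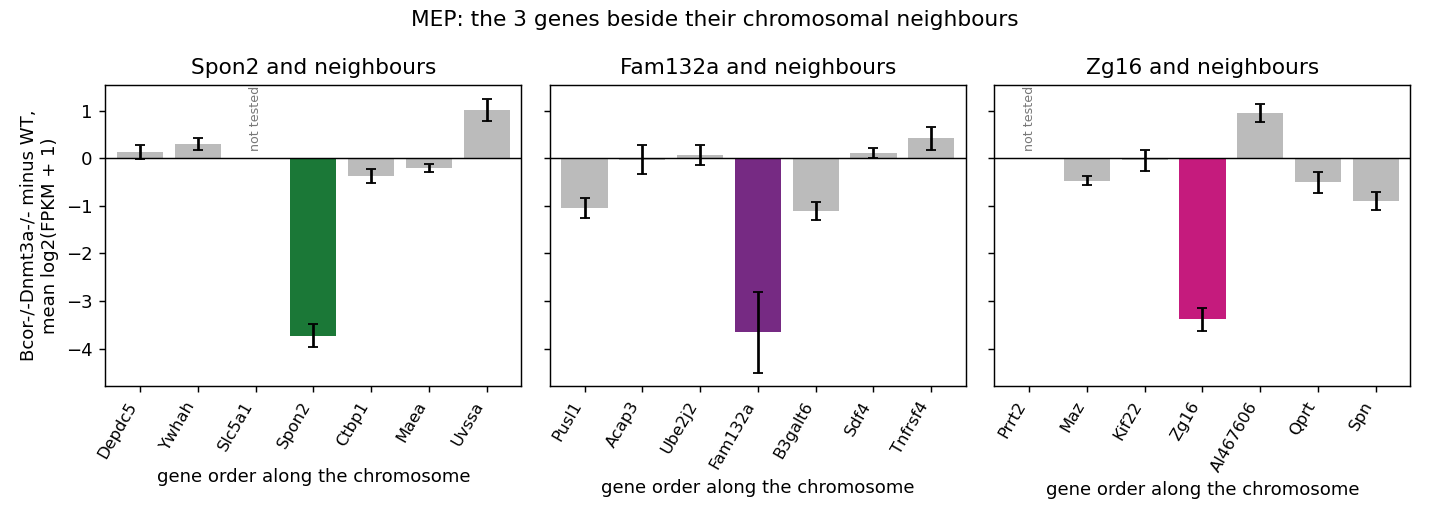
Double knockout minus WT difference in mean log2(FPKM + 1) in MEP for each gene (coloured) and its nearest 3 protein-coding genes on each side (grey), in chromosomal order. Bars are standard errors of the limma fit, and genes under the mean of 1 FPKM are marked as not tested. Tested neighbours lie between -1.11 and 1.02, and the 3 coloured genes were chosen for their decrease here.

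Among other genes of the same families, more were called higher than lower in double knockout MEP. Only genes with a mean of 1 FPKM over all MEP libraries were tested. A gene low elsewhere could enter by being high in the double knockout, which favours higher calls in these lists. Of 24 further C1q/TNF domain genes, 8 were tested in double knockout against WT MEP, 4 rose and none fell. Over all genes 18.5% were called higher and 12.4% lower. The median difference was 2.14 on the log2 scale against 0.02 for all genes tested. C1qa, C1qb and C1qc reached the minimum mean of 1 FPKM only through double knockout replicate 1. The count and the median are therefore no support for an increase of these genes. Fam132b, the erythroferrone gene, rose by 4.03 ± 0.54 (adjusted p = 0.00142 in limma). It measured 0.546, 0.650 and 0.609 FPKM in WT MEP and 10.5 and 57.9 in double knockout MEP, opposite in direction to Fam132a. The other called genes were C1qb (3.97, adjusted p = 0.0586), C1qc (3.52, adjusted p = 0.0834) and C1qtnf6 (0.96, adjusted p = 0.110). C1qb and C1qc encode complement chains made by macrophages. They were tested only because they were high in double knockout replicate 1, so their calls give no support. In the double knockout C1qb measured 231 FPKM in replicate 1 and 2.10 FPKM in replicate 2, against 0.331 to 0.966 in WT MEP. The list held 6 higher and 1 lower with a median of 2.89 without replicate 2, and 3 higher and 2 lower with a median of 0.30 without replicate 1.

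Of 14 secreted lectins, peptidoglycan-binding proteins and lysozymes beside Zg16, 7 were tested, 5 rose and none fell, with a median of 1.11. Lyz2, the myeloid lysozyme, differed by 3.81 ± 0.57 (adjusted p = 0.00209), and Pglyrp1, a peptidoglycan recognition protein of neutrophils, by 3.67 ± 0.51 (adjusted p = 0.00158). Lgals3, galectin 3, differed by 2.33 ± 0.58. Without double knockout replicate 1 the list held 3 higher and 1 lower with a median of 0.57. With quantile normalization 3 were called higher, and with centring on the median 4. Of 11 spondins, R-spondins and thrombospondins beside Spon2 only Thbs1 was tested, at 0.76 ± 0.56, not called. It measured 0.254 and 4.71 FPKM in the double knockout and 0.203 to 1.04 in WT. Its difference was 1.85 without double knockout replicate 1 and -0.34 without replicate 2. Thbs1 reached the minimum of 1 FPKM only through replicate 2, so these values give no support for an increase. Of the 5 integrin subunits that serve as receptors of spondin 2, Itgam rose by 3.18 ± 0.39 (adjusted p = 0.001) and Itgb2 by 1.83 ± 0.24, while Itga5 fell by 1.37 on the log2 scale (SE 0.20). Itga4 and Itgb1 differed by 0.14 and -0.05 and were not called.

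Of 26 other secreted proteins of blood cells tested, 12 rose and 5 fell, with a median of 0.85. The median was 1.38 without double knockout replicate 1 and 0.49 without replicate 2. Genes such as Csf1 and Fn1 reached the minimum of 1 FPKM only through the double knockout, which favours higher calls. Pf4, the platelet chemokine, fell by 3.99 on the log2 scale, and the angiopoietin gene Angpt1 by 2.15. The largest increases were those of Chil3 (5.25), a chitinase-like protein of myeloid cells, and Lcn2 (4.87), the siderophore-binding lipocalin of neutrophils. Quantile normalization gave 11 higher and 5 lower in this list, and over all genes it turned 2019 higher and 1357 lower into 1461 higher and 2277 lower and shifted the median to -0.17.

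**Figure D4:**
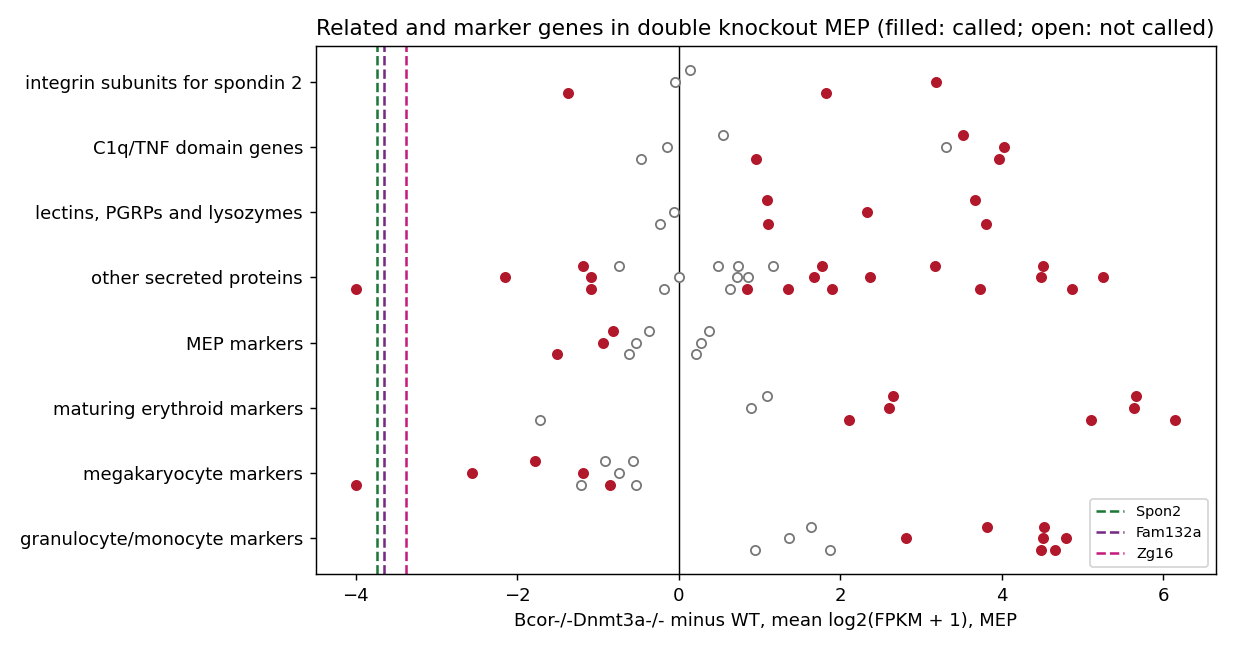
Double knockout minus WT difference in mean log2(FPKM + 1) in MEP for genes related to the 3 (upper 4 rows) and for cell type markers (lower 4 rows). Filled points were called (p under 0.05 and fold change above 1.5 in limma), open points were not, and dashed lines mark Spon2, Fam132a and Zg16 at -3.73, -3.65 and -3.38. Pf4, at -3.99 in the rows of other secreted proteins and megakaryocyte markers, is the only plotted gene to the left of the lines.

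The identity of double knockout MEP differed from that of the other MEP in its markers. Of 9 MEP markers, 3 fell and none rose. Over all genes 18.5% were called higher and 12.4% lower, the shares to set beside each marker list of this comparison. Kit, the receptor used in the sort, measured 82.9, 77.0 and 83.5 FPKM in WT and 38.1 and 20.2 in the double knockout. The summed level of the 9 was 4806 to 6613 FPKM in WT, 5331 to 6503 in Dnmt3a-/-, 6841 to 7110 in Bcor-/- and 2740 to 7176 in the double knockout, with no marker at 0. Without double knockout replicate 2 the list held 8 lower and 0 higher, and without replicate 1 it held 1 lower and 3 higher. Of 10 maturing erythroid genes tested 7 rose, among them Alas2 (6.14) and Hba-a1 (5.66). Alas2 measured 88.3 and 4390 FPKM in the double knockout. The median of the list was 2.63, and it was 4.87 without double knockout replicate 1 and 1.60 without replicate 2. The 11 genes measured summed to 625 to 1248 FPKM in WT and 4186 to 96850 in the double knockout, with Hbb-b1 listed at 0 in replicate 2. Without Hbb-b1 the sums were 517 to 984 FPKM in WT and 2332 and 96850 in the double knockout, and 7 of 9 genes rose.

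Of 10 megakaryocyte markers tested 5 fell and none rose, with Pf4 at 199, 56.5 and 243 FPKM in WT MEP and 7.68 and 8.09 in the double knockout. The megakaryocyte list summed to 106 to 380 FPKM in WT and 27.7 to 82.6 in the double knockout. Without double knockout replicate 2 it held 9 lower, and without replicate 1 it held 3 lower and 1 higher. Of 11 granulocyte and monocyte markers 7 rose, with a summed level of 317 to 789 FPKM in WT and 6887 to 15400 in the double knockout. Of 6 macrophage markers 5 rose, and they summed to 2.04 to 3.50 FPKM in WT and 8.34 to 767 in the double knockout. All but Vcam1 reached the minimum mean of 1 FPKM only through double knockout replicate 1, so the count is no support for an increase. Without replicate 1 of the double knockout 3 macrophage markers were called higher, with a median of 0.64, and without replicate 2 all 6 were, with a median of 6.40. Of 7 B-lymphoid markers 5 rose, but the list held 2 higher and 2 lower without replicate 1 and 7 higher without replicate 2. Of 5 T and NK cell markers 4 rose, and the list summed to 43.5 to 73.1 FPKM in WT and 119 to 256 in the double knockout. The median was 2.84 without double knockout replicate 1 and 2.08 without replicate 2. Cd3g, 1 of the 5, reached the minimum only through the double knockout, which favours a higher value. All 3 eosinophil markers tested rose, and that list summed to 1.65 to 4.59 FPKM in WT and 26.5 to 86.3 in the double knockout. The median was 2.37 without double knockout replicate 1. Ccr3 and Il5ra, 2 of the 3, reached the minimum mean of 1 FPKM only through the double knockout. Their calls therefore give no support for an increase. Prg2, the other, measured 2.48, 1.5 and 4.21 FPKM in WT, up to 14.3 in Dnmt3a-/- MEP, and 61.2 and 17.4 in the double knockout. The part of these other cells in the decrease of Spon2, Fam132a and Zg16 was not tested.

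In Bcor-/- MEP, where Spon2 was also low, the called markers were few against Dnmt3a-/- and included granulocyte genes against WT. Against Dnmt3a-/-, none of the 9 MEP markers, none of 10 maturing erythroid genes and none of 11 granulocyte and monocyte markers were called by limma, and 0 of these had a p under 0.05 before adjustment when the fold change was ignored. In the same comparison 1 of 10 megakaryocyte markers, Gp5, rose by 0.80, 1 of 6 stem cell markers, Hoxa9, rose by 1.65, and 1 of 8 C1q/TNF domain genes, C1qtnf6, fell by 1.04 on the log2 scale (adjusted p = 0.433, 0.122 and 0.669). Cela1, of the pancreatic list, fell by 0.66 on the log2 scale in Bcor-/- against Dnmt3a-/- MEP (SE 0.29, adjusted p = 0.718). The medians of the 4 lists were -0.08, -0.80, -0.04 and 0.07 (MEP markers, maturing erythroid, granulocyte and monocyte, megakaryocyte). The spread shared by the fit includes the double knockout libraries, which differ greatly in erythroid genes (the SE of Alas2 was 1.3), so the missing calls do not show that these genes were level, and 7 of the 10 erythroid genes lay below all Dnmt3a-/- libraries in both Bcor-/- libraries, where 40.8% of all genes did not overlap in either direction. Alas2, for one, measured 1.91 and 1.49 FPKM in Bcor-/- and 6.77 to 10.2 in Dnmt3a-/- MEP. Against WT, 4 of 11 granulocyte and monocyte markers were called where 2.76% of all genes were, with Elane (2.54), Mpo (2.19) and Prtn3 (2.02) higher and S100a8 lower (-1.10). Gp5 (0.80), Hdc (1.27) and Hoxa9 (1.47), 1 gene each of the megakaryocyte, basophil and stem cell lists, were called higher. The part of these shifts in the Spon2 values was not tested.

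The 3 genes were not one pattern across the 10 MEP libraries. On the log2(FPKM + 1) scale, Pearson's r was 0.81 between Spon2 and Zg16, 0.804 between Fam132a and Spon2 and 0.708 between Fam132a and Zg16. Over the 8 libraries without the double knockout it was -0.557, 0.696 and 0.087. These are descriptions over libraries that share genotypes, and the highest rank of any of the 3 among the genes most like another was 1227, that of Spon2 for Fam132a.

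The gene most like Spon2 across MEP libraries was Slc26a1, a sulfate and oxalate transporter, with r = 0.996 over 10 libraries, followed by Hpn, the serine protease hepsin, and Lmcd1, both at 0.991. Mipep and Aldh7a1, both mitochondrial enzymes, followed at 0.988. In WT MEP, Slc26a1 measured 12.6, 17.1 and 11.3 FPKM, and Dnmt3a-/- MEP held 14.2, 18.3 and 15.2 FPKM. Its level was 6.97 and 7.29 FPKM in Bcor-/- MEP, and the double knockout libraries held 1.93 and 1.96 FPKM. It shared the intermediate level in Bcor-/- MEP and the low level in both double knockout libraries. Slc26a1 was picked for its r over these same libraries, so the shared pattern follows from that choice and is only a description.

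The genes most like Fam132a were Rpl27a, a ribosomal protein gene, and Spn, both at r = 0.982, then Gcsh, Hsd17b4 and Cpsf3 at 0.980 to 0.981. Rpl27a measured 70.9 to 76.6 FPKM in WT and 59.3 and 26.4 in the double knockout, with 66.7 to 67.8 in Dnmt3a-/- and 68.2 and 69.0 in Bcor-/- MEP. Picked in the same way, it shared the low value of double knockout replicate 2. Its Bcor-/- libraries lay above the Dnmt3a-/- libraries, the reverse of Fam132a. The genes most like Zg16 were Chchd4, a mitochondrial import factor, Phka2, a phosphorylase kinase subunit, and Pja1, a ubiquitin ligase, all at r = 0.987, then Gsto1 and Polr1b. Chchd4 lay between 42.9 and 48.1 FPKM in the 8 other MEP libraries and at 25.4 and 28.6 FPKM in the double knockout.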

How the data were processed

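RNA was sequenced from sorted LSK and MEP of the same mice, 10 libraries per population. The authors deposited FPKM values (fragments scaled by gene length and library size) for 24315 genes per population, per the labels made with STAR 2.5.1b, SAMtools 1.9 and Cufflinks 2.2.1 on mm9. Annotation and handling of strand are not given in the sources used here. Read counts were not used here, so relative depth was taken from steps among values under 0.2 FPKM.

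Genes whose mean reached 1 FPKM entered the analysis as log2(FPKM + 1), fitted with limma 3.58.1 (R 4.3.3, mean-variance trend), with 4 genotypes per population in 1 fit. Fold changes for calls are on the log2(FPKM + 1) scale, which understates changes of low genes. Folds printed for single genes are ratios of mean FPKM. A gene was called at an unadjusted p below 0.05 with a fold change over 1.5, as in the methods of the study, with Benjamini-Hochberg adjustment over all genes tested. Single values were also compared by exact permutation, two-sided. The fit was tested on simulated data. Samples were grouped by their titles, whose mouse names separate the replicates.

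The members and lists were chosen with earlier results of these data known. Named genes were the 3 members, the deleted genes, genes of the lists whether called or not, the nearest 3 neighbours per side and the 5 genes most correlated with each member. Alternatives were another pseudocount, minimum, scaling, set of genotypes, variance model, threshold and each library left out. Where this left a group with 1 library, that library was assumed to vary like the other groups.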

Additional observations from a re-analysis of the deposited data

Results flagged for a closer look

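The difference between Bcor-/- and Dnmt3a-/- libraries ran in opposite directions in LSK and MEP for 2 of the 3 genes, with groups that did not overlap. Over all genes, the groups of 58.1% did not overlap in LSK and of 40.8% in MEP, in either direction. For Spon2 it was 0.64 on the log2(FPKM + 1) scale in LSK, without the minimum, and -1.97 in MEP. For Fam132a it was 1.71 in LSK and -0.45 in MEP, where it was not called (SE 0.85, adjusted p = 0.967 in limma). The Fam132a difference between Bcor-/- and WT libraries likewise was 1.06 in LSK and -1.02 in MEP, neither of them called, where 54% and 30.8% of genes did not overlap. The difference between the populations was not tested, because the tables may have been normalized separately, and the Spon2 values in LSK rest on 7 and 29 steps in Bcor-/- against 3 to 6 in Dnmt3a-/- libraries.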

How the results depend on the processing

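Differences are on the log2(FPKM + 1) scale unless another pseudocount is named. With a pseudocount of 0.1 the double knockout difference in MEP was -4.68 for Spon2 and -4.37 for Zg16. Leaving out each library in turn gave -3.92 to -3.54 for Spon2, -5.51 to -1.78 for Fam132a and -3.84 to -2.92 for Zg16. The Bcor-/- decreases of Spon2 in MEP stayed called on the unadjusted p in every alternative run. When a library was left out they were -1.85 to -1.47 against WT and -2.11 to -1.83 against Dnmt3a-/-. An adjusted p left -1.66 against WT uncalled. The WT libraries also chose the gene, so the calls against WT give no independent support.

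For Fam132a, the double knockout difference in LSK was -1.67 to 1.46 when a library was left out and 0.01 with a replicate block. Bcor-/- against WT was called in LSK (1.06) and, against WT libraries that also chose the gene, in MEP (-1.02), and Dnmt3a-/- against WT in LSK (-0.65), when only the compared genotypes were fitted and with variance weights by genotype. When a library was left out these ranged from 0.90 to 1.18, -1.17 to -0.82 and -0.81 to -0.52. Bcor-/- against Dnmt3a-/- in LSK lost its call with an adjusted p or no minimum (1.71 in both) and ranged from 1.58 to 1.82 when a library was left out. For Zg16 in LSK, an adjusted p left both Bcor-/- differences uncalled (1.57 against WT, 1.20 against Dnmt3a-/-). A pseudocount of 0.1 gave 3.09 against WT, still called, and 1.87 against Dnmt3a-/-, not called. With a library left out the ranges were 1.32 to 1.83 against WT, 0.94 to 1.45 against Dnmt3a-/-, and -0.51 to 0.78 for the double knockout. For Zg16 in MEP, Bcor-/- against WT ranged from -0.10 to 0.19. Beyond what each alternative's construction shows, the cause was not tested.

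Counts of called genes also moved. With a fold change above 2 the counts were 1973 (double knockout against WT), 516 (Bcor-/- against WT), 19 (Dnmt3a-/- against WT) and 629 (Bcor-/- against Dnmt3a-/-) in LSK, and 1727, 118, 14 and 149 in MEP, from main counts of 3383, 1581, 53 and 1910 in LSK and 3376, 302, 45 and 388 in MEP. With an adjusted p they were 690 (Bcor-/- against WT), 0 (Dnmt3a-/- against WT) and 1143 (Bcor-/- against Dnmt3a-/-) in LSK and 7, 0 and 23 in MEP. With a minimum of 5 FPKM they were 33 for Dnmt3a-/- against WT in LSK and 166, 29 and 210 in MEP. With only the compared genotypes they were 105 for Dnmt3a-/- against WT in LSK, and 89 for Dnmt3a-/- against WT and 637 for Bcor-/- against Dnmt3a-/- in MEP. With variance weights they were 121 for Dnmt3a-/- against WT in LSK, and 1980 (double knockout), 482, 78 and 727 in MEP, and a pseudocount of 0.1 gave 78 for Dnmt3a-/- against WT in MEP. With a library left out, counts ranged from 885 to 1968, 35 to 113 and 1209 to 2340 in LSK and from 199 to 442, 34 to 121 and 237 to 617 in MEP, for Bcor-/- against WT, Dnmt3a-/- against WT and Bcor-/- against Dnmt3a-/-.

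Same-numbered libraries shared only a number, with correlations of their deviations from -0.19 to 0.34. The replicate block changed no call among the 3 genes and gave 3385 calls for the double knockout in MEP, and with it the adjusted p of Spon2 in Bcor-/- against Dnmt3a-/- MEP was 0.0562. Low FPKM values rest on a few fragments, and 2 libraries per genotype limit every statement about Bcor-/- and double knockout cells.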
